A study of Rattus norvegicus with 4 samples.

Results

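Moderate hepatocellular carcinoma (HCC, the commonest primary liver cancer) in rats at day 49 was set against the naive state through the microRNAs (miRNAs) carried by serum exosomes. The members are the rat miRNAs that the scanner software called detected on the moderate array, on the naive array or on both: 177 of the 719 on the array, where 182 were detected on at least 1 of the series' 4 arrays. RNA from serum exosomes of male rats was hybridised in 1 colour (Cy3) to rat miRNA arrays made by Agilent, with a single array per group: naive (day 0, no injection), light (day 35), moderate (day 49) and severe (day 49). The sample protocol has an HCC cell line injected, whereas the design text has exosomes given as 1 dose to rats whose strain it spells baffolo. The design text counts 4 independent experiments at each time with different rats, and whether 1 array holds 1 rat or a pool was not given in the sources used here. The line, the site of injection and how moderate disease was told from severe were not given either. Disease and day differ together between the naive and moderate arrays and cannot be told apart.

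A miRNA is a short RNA that pairs with messenger RNAs, mostly through bases 2 to 8 from its 5′ end, the seed, and lowers their output. It is cut from a hairpin whose 5p and 3p arms can both give a mature miRNA, and neighbouring hairpins are often transcribed together as a cluster. Exosomes are small vesicles that cells release, and those of serum come from blood cells, platelets, vessel walls and solid organs alike. Several miRNAs are strongly enriched in 1 source: miR-122-5p in hepatocytes, miR-451-5p in red cells, miR-223-3p in myeloid cells and platelets, miR-150-5p in lymphocytes, miR-1-3p and the miR-133 family in heart and skeletal muscle, miR-143-3p in smooth muscle, and miR-199a with miR-214 in fibroblasts and other mesenchymal cells. In serum exosomes a change in how many vesicles a cell type sheds and a change in their content per vesicle cannot be told apart.

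The mature sequences that the comparison turns on follow, 5′ to 3′, from RefSeq (build GRCr8), with the seed in capitals. RefSeq's table held 159 of the 177 members. The first 8 are those at least 2-fold higher on the moderate array and the ninth is the one at least 2-fold lower.
miR-1-3p: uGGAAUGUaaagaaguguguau
miR-214-3p: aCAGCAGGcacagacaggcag
miR-143-3p: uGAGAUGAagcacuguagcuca
miR-199a-3p: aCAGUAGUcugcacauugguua
miR-10b-5p: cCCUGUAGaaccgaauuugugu
miR-212-3p: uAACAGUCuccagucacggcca
miR-10a-5p: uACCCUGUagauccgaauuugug
miR-497-5p: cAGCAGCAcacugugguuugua
miR-181b-5p: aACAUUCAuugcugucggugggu

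The next set shows miRNAs that share a cluster, a hairpin or a seed with the first set and that read differently. Others in it, miR-133b-3p, miR-27a-3p and let-7f-5p, stand there for lying just inside the threshold.
miR-145-5p: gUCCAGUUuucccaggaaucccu
miR-199a-5p: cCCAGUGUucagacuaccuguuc
miR-132-3p: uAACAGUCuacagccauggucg
miR-133b-3p: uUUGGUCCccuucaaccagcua
miR-133a-3p: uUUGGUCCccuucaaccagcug
miR-195-5p: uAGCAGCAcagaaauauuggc
miR-16-5p: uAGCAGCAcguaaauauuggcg
miR-27a-3p: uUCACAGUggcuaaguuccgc
miR-181a-5p: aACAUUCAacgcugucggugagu
let-7f-5p: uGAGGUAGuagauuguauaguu

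The seeds of the first 9 all differ from one another. miR-212-3p shares its seed with miR-132-3p, miR-497-5p with miR-195-5p and miR-16-5p, and miR-181b-5p with miR-181a-5p.

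The moderate array was the brighter of the pair. The software detected 140 miRNAs on the naive array and 176 on the moderate array, 139 of them on both. The summed signal of detected miRNAs was 1.58 times as high on the moderate array, while the labelling spike-ins read 0.891 times as high. A miRNA's signal is the background-subtracted intensity averaged over replicate spots and summed over its probes, in intensity units. To compare arrays, signals were scaled to the 75th percentile of the 111 miRNAs that all 4 arrays detected, 666 units on the naive array and 954 on the moderate array. Each array has a floor, the dimmest probe for which a share of 0.5 or more of the spots stood well above background: 15.6 units on the naive array and 13.1 on the moderate array. A detected miRNA at or above it counts as measured. By that rule 126 members were measured on both arrays, 39 on the moderate array alone, 1 on the naive array alone and 11 on neither. Every ± below is a standard error over replicate spots of the 2 arrays (18 to 20 on each for the miRNAs past 2-fold), covers spot noise only and says nothing of variation between rats. With 1 array per group there is no replicate check and no test, and 2-fold is a threshold of size.

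The profile of the moderate array followed that of the naive array closely. Over the 126 miRNAs measured on both, log2 scaled signals correlated with Pearson r of 0.974, across miRNAs that are not independent replicates. The log2 difference, moderate minus naive, had a median of 0.22 and quartiles of −0.15 and 0.52. It was above 0 for 83 miRNAs and below 0 for 43, and 89 of the 126 (70.6%) lay within 1.5-fold. At least 2-fold higher were 8 of 126 (6.35%) and at least 2-fold lower 1 of 126 (0.794%).

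**Figure D1:**
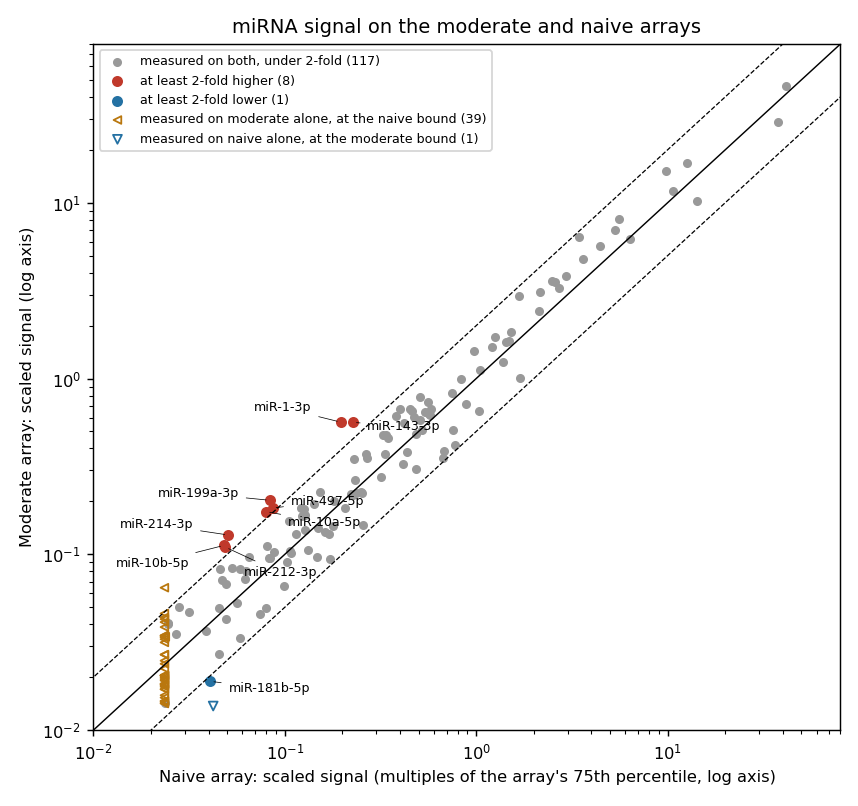
Scaled signal of each miRNA on the naive array (x axis) and the moderate array (y axis), both in multiples of the array's 75th percentile on log axes. Grey points are the 117 miRNAs under 2-fold, red points the 8 at least 2-fold higher and the blue point the 1 at least 2-fold lower; open triangles stand at the bound of the array that did not measure them, the solid line is equality and the dashed lines are 2-fold. The 9 miRNAs past 2-fold lie among the dimmer ones of the naive array, at ranks 68 to 119 of 126.

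The largest difference belonged to miR-1-3p, the miRNA of heart and skeletal muscle fibres. It read 130 units on the naive array and 539 on the moderate array, a log2 difference of 1.53 ± 0.03 or 2.88-fold after scaling. Both of its probes showed it, at 84.7 and 45.8 units on the naive array against 348 and 191 on the moderate array. The spots of the 2 arrays did not overlap for either probe. Such separation was common and does not set miR-1-3p apart. Spot ranges were apart on any probe for 99 of the 126 miRNAs measured on both arrays. Both probes of miR-451-5p were apart as well, at a log2 difference of 0.14.

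Among the other muscle miRNAs, one bright member was higher by less and several dim ones lay under the floor on the naive array and above it on the moderate array. Of all 177 members 39 were measured on the moderate array alone and 1 on the naive array alone. miR-133b-3p was the only other one of the 10 muscle miRNAs listed that was measured on both arrays, at 1114 and 2830 units, and its log2 difference of 0.83 ± 0.01 stayed under 2-fold. miR-133a-3p, whose hairpin lies within 10 kb of that of miR-1-3p, read 6.66 units on the naive array and 43.9 on the moderate array, a bound of at least 1.96-fold. Its sequence matches that of miR-133b-3p at 21 of 22 positions, with A22G as the only substitution (counted from the 5′ end of miR-133b-3p), and how far the probes of one bind the other was not tested. Of the 2 miR-133a-3p probes, 1 stayed below 0 on both arrays. The cardiac miRNAs miR-208a-5p and miR-499-5p and the skeletal muscle miRNA miR-206-3p were detected on the moderate array alone of the pair. In all, 37 of the 177 members were so detected, and 1 on the naive array alone. miR-208a-5p, which is outside the list, read 4.57 and 32.1 units, miR-499-5p 0.955 and 33.0, and miR-206-3p 5.83 and 18.3. After scaling the bound of miR-206-3p lay under 1 and gives no fold. The sequence of miR-206-3p matches that of miR-1-3p at 19 of 22 positions, and how far the probes of one bind the other was not tested. The summed signal of the 10 listed muscle miRNAs went from 1161 to 3417 units before scaling, readings below 0 included. After scaling, and with readings below 0 set to 0, it went from 1.89 to 3.65 times the 75th percentile. Whether the scaled sum reached 2-fold depended on how readings below 0 were counted. Most of the summed signal came from miR-133b-3p, and miR-133b-5p, miR-206-5p, miR-208a-3p and miR-208b-3p were detected on neither array.

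Mesenchymal miRNAs filled places 2 to 4. miR-214-3p read 33.7 and 123 units (1.35 ± 0.05), miR-143-3p 151 and 537 units (1.31 ± 0.02) and miR-199a-3p 55.5 and 194 units (1.28 ± 0.03), the values in brackets being log2 differences. All 3 stood more than 2-fold up, within a narrow span of one another. They are among the 8 of all 126 miRNAs measured on both arrays (6.35%) that were at least 2-fold higher. miR-199a-3p and miR-214-3p come from neighbouring hairpins that are transcribed together, and miR-143-3p from another cluster. The list of smooth muscle and fibroblast clusters held 8 miRNAs, of which these 3 were measured on both arrays, with a median of 1.31 against 0.22 over all 126.

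Their partners from the same transcripts were not detected. miR-145-5p, which shares its primary transcript with miR-143-3p and is a hallmark of smooth muscle, read −16.7 and −4.99 units. miR-199a-5p, the other arm of the hairpin of miR-199a-3p, read −8.35 and −2.75 units, and miR-214-5p and miR-145-3p were likewise detected on neither array. The higher readings of miR-143-3p and miR-199a-3p were thus not accompanied by a detectable reading of miR-145-5p or miR-199a-5p at the array's floor. Of all 719 miRNAs on the array 542 were detected on neither, and the partners were not tested against that share.

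miR-10a-5p and miR-10b-5p, encoded within the Hox gene clusters, were both at least 2-fold higher. miR-10b-5p read 32.0 and 107 units (log2 difference 1.23 ± 0.06) and miR-10a-5p 53.2 and 167 units (1.13 ± 0.03). RefSeq's entry for miR-10b-5p starts 2 bases later than that of miR-10a-5p, which is why the printed seeds differ, and the 2 sequences match at 20 of the 21 positions they share, with U12A as the only substitution (counted from the 5′ end of miR-10a-5p). How far the probes of one bind the other was not tested. The other 6 miRNAs of that list, the miR-196 family and miR-615 among them, were detected on neither array, as were 542 of all 719.

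miR-212-3p read 32.6 units on the naive array and 105 on the moderate array, a log2 difference of 1.17 ± 0.06. It is transcribed together with miR-132-3p from a locus known to respond to the transcription factor CREB. miR-132-3p has the same seed and read −6.91 and −1.19 units, and it was detected on neither array. Of the 4 miRNAs of the locus, miR-212-3p was the only one detected, where 542 of all 719 were detected on neither array.

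miR-497-5p stood last of the 8, at 57.5 and 175 units with a log2 difference of 1.09 ± 0.04. It belongs to the miR-15/16 seed family, whose members restrain the cell cycle through cyclins and other targets, and its seed AGCAGCA was carried by 4 miRNAs measured on both arrays. miR-195-5p, from the neighbouring hairpin, read 18.6 and 48.1 units (0.85 ± 0.08), just under 2-fold. miR-15b-5p read 1443 and 2971 units (0.52 ± 0.02) and miR-16-5p, abundant in red cells, 7065 and 11091 units (0.13 ± 0.03). The 4 carriers of 1 seed thus spanned 0.95 on the log2 scale, the hairpin neighbours miR-497-5p and miR-195-5p at the top and the bright blood miRNA miR-16-5p at the bottom.

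**Figure D2:**
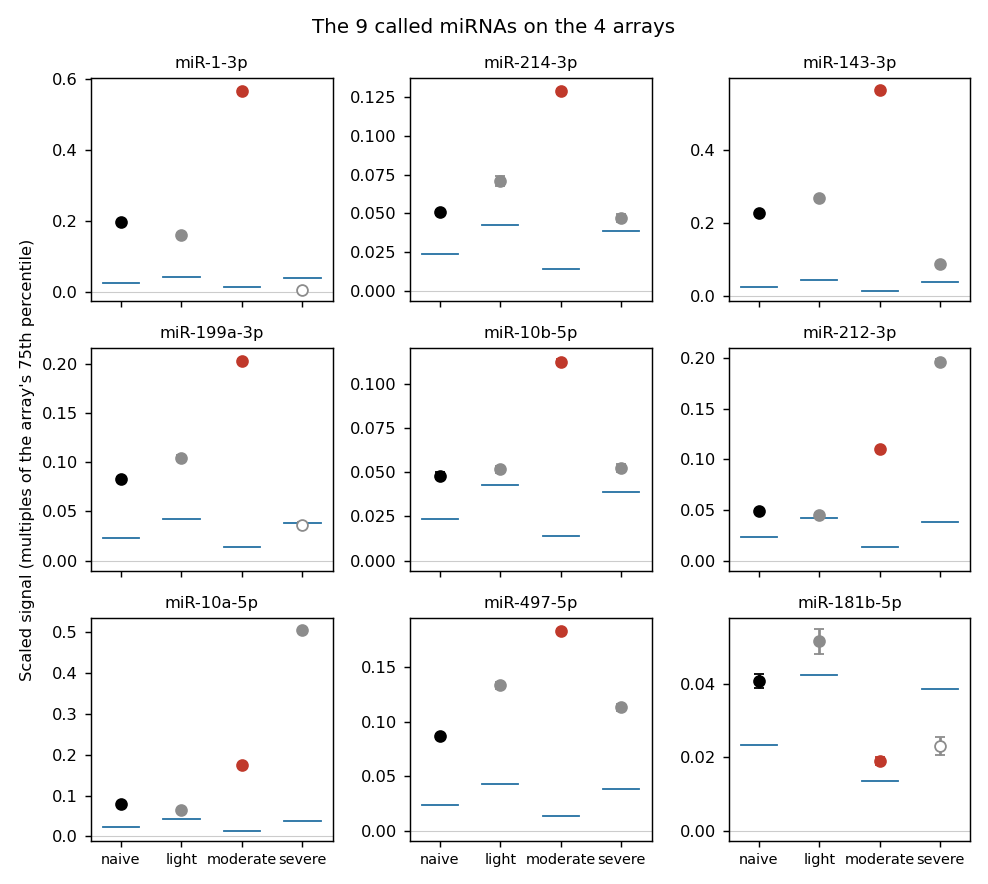
Scaled signal of each of the 9 miRNAs past 2-fold on all 4 arrays, with standard errors over replicate spots of 1 array; each panel has its own linear axis. Blue ticks mark each array's floor and open circles values that were not measured; the moderate array stands highest of the 4 for each of the 8 higher miRNAs except miR-212-3p and miR-10a-5p, which stand highest on the severe array.

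The 9 miRNAs past 2-fold, called higher or lower in what follows, did not follow 1 course over the other disease arrays. All comparisons below share the naive array, and each value is a log2 difference from it. On the light array the 8 higher ones lay between −0.32 (miR-10a-5p) and 0.63 (miR-497-5p), none of them 2-fold away from naive. On the severe array, taken at the same day as the moderate one, miR-10a-5p stood at 2.66 and miR-212-3p at 2.01, further from naive than on the moderate array. miR-143-3p stood at −1.38 there. miR-1-3p was not detected on the severe array, with 2.28 units and a bound of at least 5.08-fold lower, and miR-199a-3p read under the floor there, at least 2.16-fold lower. The last 3 therefore stood past 2-fold on opposite sides of naive on the 2 arrays of day 49, a difference that was not tested. The severe array had many miRNAs past 2-fold: of 109 measured on it and on the naive array, 24 were higher and 21 lower.

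miR-181b-5p was the only miRNA measured on both arrays and at least 2-fold lower, at 27.2 units on the naive array and 18.1 on the moderate array (−1.11 ± 0.11). It is one of the miR-181 family, known for its part in lymphocyte development. Its signal lay close to the floor of both arrays, it ranked 125 of the 126 on the moderate array, and 10 of 18 spots were well above background on the naive array against 3 of 19 on the moderate one. miR-181a-5p, from the adjoining hairpin and with the same seed, read 38.9 and 31.8 units (−0.81 ± 0.07). miR-181d-5p (−0.32) and miR-181c-5p (−0.19) completed the family, all 4 below the median of 0.22.

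miR-883-5p was measured on the naive array alone, at 28.1 units, and although called detected it read 12.3 units on the moderate array, under the floor. Only 1 of its 2 probes gave a signal, 38.1 units on the naive array and 20.6 on the moderate array, a log2 difference of −1.41. The other read below 0 on both and lowers the sum.

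The miRNAs nearest to 2-fold on its inner side were miR-27a-3p (0.89 ± 0.01, from 2303 to 6119 units), miR-195-5p, miR-191a-3p (0.84 ± 0.12), miR-133b-3p and miR-27b-3p (0.75 ± 0.02) on the higher side. On the lower side they were let-7f-5p (−0.92 ± 0.02, 447 and 339 units), miR-142-3p (−0.88 ± 0.02, 516 and 400 units), miR-466b-5p (−0.88 ± 0.03), let-7a-5p (−0.81 ± 0.02) and miR-181a-5p. These include far brighter miRNAs than the called ones: miR-27a-3p ranked 9 and miR-133b-3p 18 of the 126 on the moderate array, while the called ones ranked between 45 and 125.

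All 5 measured miRNAs of the miR-23/24/27 clusters, which are expressed in endothelium and many other cells, stood above the median of 0.22, with a median of 0.58. miR-23a-3p read 3702 and 7734 units (0.55 ± 0.02), miR-24-3p 2955 and 5437 units (0.36 ± 0.02), and the b copies miR-23b-3p (0.58) and miR-27b-3p (0.75) lay between miR-23a-3p and miR-27a-3p. The sequences of miR-27a-3p and miR-27b-3p match at 20 of 21 positions, with C19U as the only substitution. How far the probes of a b copy bind the brighter a copy was not tested. miR-24-2-5p, a passenger strand of the same cluster, was detected on the moderate array, and on the light and severe ones under their floors, but not on the naive one. It read −6.26 and 61.6 units, at least 2.75-fold higher, and among the 39 that only the moderate array measured it was the only one with a bound past 2-fold. Of its 4 probes, 2 carried the signal on the moderate array (46.8 and 25.9 units) and the other 2 read below 0.

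The let-7 family, abundant repressors of growth genes in most differentiated cells, lay lower than the bulk. Its 6 miRNAs measured on both arrays all stood below the median of 0.22 and 5 of them below 0, from let-7f-5p at −0.92 to let-7i-5p at 0.10, with a median of −0.51. Unscaled, let-7a-5p read 451 and 368 units and let-7i-5p 695 and 1070 units, so its members did not share a direction before scaling. let-7a-5p and let-7f-5p differ by 1 base (G12A, counted from the 5′ end), and how far they share signal was not tested. The direction of the family against 0 depended on the scaling, from a median of −0.74 to 0.18 over the 6 usable scalings (the 75th percentile over all 719 miRNAs was void, its scale lying under the floor). Relative to the median of all miRNAs it lay between −0.76 and −0.29 under each of 16 ways of processing.

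The lymphocyte list behaved alike in position, with 6 measured miRNAs all below the median of 0.22 and a list median of −0.44. miR-150-5p, the main miRNA of mature lymphocytes, read 502 and 486 units (−0.57 ± 0.02), and miR-342-3p 383 and 594 units (0.12 ± 0.03). The 4 miR-181 miRNAs make up the rest of the list. Its median ran from −0.68 to 0.24 over the scalings, and from −0.70 to −0.29 relative to the median of all miRNAs over the 16 ways.

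Myeloid miRNAs split. miR-223-3p, abundant in neutrophils and platelets, read 6534 and 14519 units (0.63 ± 0.01) and moved from place 6 to place 4. miR-142-3p, made in nucleated blood cells of all lines, was lower (−0.88), while miR-142-5p from the other arm of its hairpin stood at 0.16 ± 0.02. The list median was 0.23 against 0.22 over all miRNAs. Platelet miRNAs other than miR-223-3p differed by −0.08 for miR-126a-3p, which is also endothelial, 0.36 for miR-24-3p and 0.40 for miR-22-3p. miR-191a-5p lay under the floor on the naive array (3.06 and 39.2 units), with 2 of its 4 probes below 0 on both arrays and a log2 difference of 0.39 on its brightest probe.

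Red-cell miRNAs hardly differed after scaling. miR-451-5p, the brightest miRNA of both arrays, read 27775 and 43838 units (0.14 ± 0.01), and its share of all detected signal was 20.0% on the naive array and 19.9% on the moderate one. miR-144-3p, from the same transcript, stood at −0.19 ± 0.03 and miR-16-5p at 0.13. The log2 of miR-451-5p over miR-23a-3p within an array, a customary reading for red-cell lysis in serum, was 2.91 on the naive array and 2.50 on the moderate array. Its part in the differences above was not tested.

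Liver miRNAs showed no common direction. miR-122-5p, the defining miRNA of hepatocytes, read 1123 and 964 units and stood lower at −0.74 ± 0.02, while miR-122-3p from the same hairpin, at 25.7 and 35.1 units, stood at −0.07 ± 0.07. miR-192-5p read 321 and 463 units and had one of the smallest differences among bright miRNAs, 0.01 ± 0.01. miR-215, with the same seed, stood at 0.57 ± 0.03 and miR-193-3p, near the floor, at 0.72 ± 0.09. The list's 5 measured miRNAs had a median of 0.01, with 0 past 2-fold, against 6.35% higher and 0.794% lower over all miRNAs.

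Of miRNAs reported as raised in HCC, 5 of the 9 listed were measured on both arrays and 0 reached 2-fold, where 6.35% of all miRNAs measured on both were higher, a share under which 0 of 5 is no result about the list. They were miR-21-5p (1969 and 3675 units, 0.38 ± 0.02), miR-210-3p (0.60), miR-221-3p (0.48), miR-17-5p (0.17) and miR-18a-5p (0.15). Their median was 0.38. miR-92b-3p, which the series title names, was detected on neither array. Of miRNAs reported as lowered in HCC tissue, 10 of 13 were measured, with a median of 0.57. That list holds miR-199a-3p and miR-214-3p, which stood at least 2-fold higher here, as well as miR-122-5p, and its remaining 7 lay between −0.15 (miR-26a-5p) and 0.85 (miR-195-5p), miR-29a-3p (0.52), miR-29b-3p (0.51), miR-29c-3p (0.63) and miR-101a-3p (0.61) among them.

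**Figure D3:**
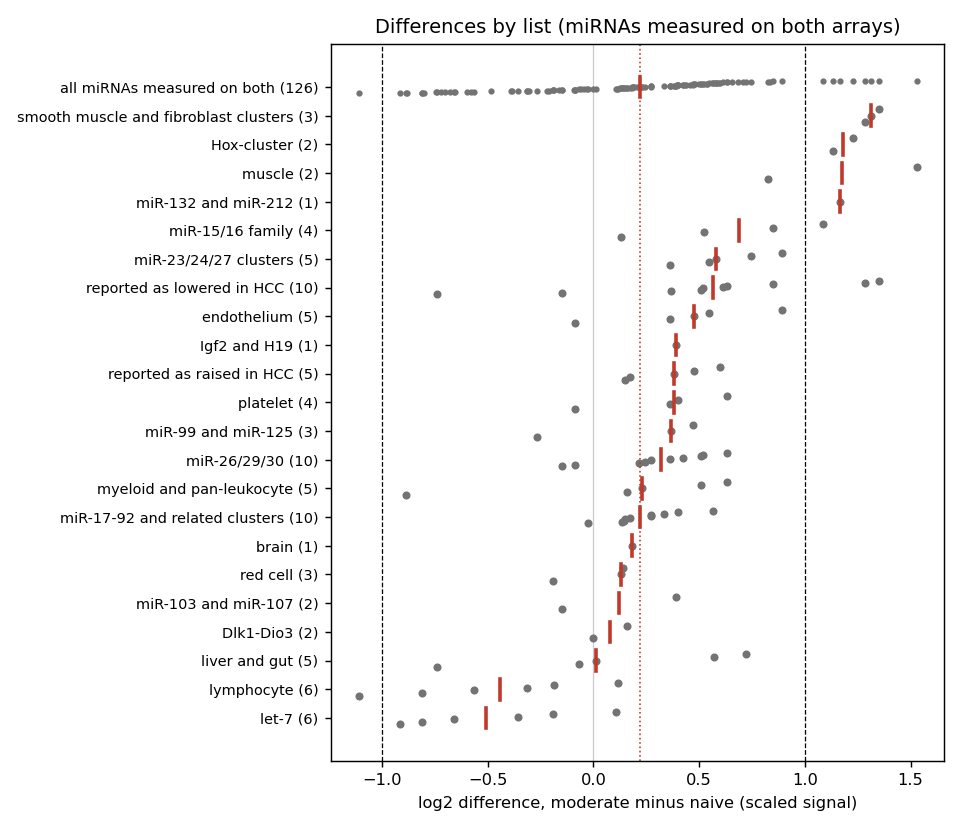
Log2 difference, moderate minus naive, of the miRNAs measured on both arrays, by list, with the number measured in brackets; a miRNA may stand in several lists. Grey points are miRNAs, red bars medians, the dotted line the median of all 126 (0.22) and the dashed lines 2-fold; the smooth muscle and fibroblast, Hox-cluster, muscle, and miR-132 and miR-212 lists have the highest medians and the let-7 and lymphocyte lists the lowest.

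Larger families stayed near the bulk. The 10 measured miRNAs of the miR-17-92 and related clusters, growth-promoting miRNAs of dividing cells, had a median of 0.22, from −0.02 (miR-92a-3p) to 0.57 (miR-106b-5p). The 10 of the miR-26, miR-29 and miR-30 families had a median of 0.32. The 5 measured endothelial miRNAs had a median of 0.48, the value of miR-221-3p. Among them miR-23a-3p, miR-24-3p and miR-27a-3p also stand in the list of the miR-23/24/27 clusters. miR-126a-3p, the defining endothelial miRNA, read 71.9 and 97.1 units (−0.08 ± 0.03). Epithelial miRNAs were at or near the floor: of 7 listed, 0 were detected on the naive array and 1, miR-203a-3p, on the moderate array (10.9 and 33.0 units). Of 29 listed miRNAs of the imprinted Dlk1-Dio3 cluster 27 were detected on neither array. Of all 719 miRNAs on the array 542 were detected on neither, and neither list was tested against that share. Of the remaining lists, miR-103-3p (−0.15) and miR-107-3p (0.39) stood on either side of the median, the 3 measured miRNAs of the miR-99 and miR-125 families had a median of 0.37, and neither the 1 measured brain miRNA, miR-128-3p, nor the 1 of the Igf2 and H19 genes, miR-483-5p (0.39), reached 2-fold.

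Over the 114 measured miRNAs with a RefSeq sequence, 16 seeds were carried by more than 1 miRNA measured on both arrays, 45 miRNAs in all. miRNAs without a sequence here, such as miR-301a-3p, miR-30b-5p and miR-30d-5p, are not in these groups. Within a seed the differences spanned a median of 0.34 on the log2 scale. The widest spans were those of let-7 (1.02), AGCAGCA (0.95) and miR-181 (0.92), and the narrowest those of miR-130 (0.02), miR-23 (0.04) and miR-19 (0.07). The base composition of the sequence went with the difference only weakly, as a description over miRNAs that share arrays. Over the same miRNAs the Spearman correlation was 0.27 with the share of C, −0.27 with that of G and 0.22 with that of A. With the GC share, which adds the opposite C and G, it was −0.02. Among the arms that RefSeq pairs on 1 precursor under their array names, both were measured on both arrays for 7 precursors. They differed by 1.04 on the log2 scale for miR-142, 0.82 for miR-466b-2, 0.67 for miR-122 and 0.54 for miR-324. The gap was 0.21 for miR-140, 0.09 for miR-652 and 0.08 for let-7d.

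Most of what the moderate array added lay close to its own floor. The 37 miRNAs detected on the moderate array and not on the naive one had signals of −15.5 to 61.6 units with a median of 17.1, against a median of 210 units for those detected on both. The naive floor corresponds to 22.4 units on the moderate array after scaling, and 28 of the 37 lay below it, so that the same scaled level would not have been measured on the naive array. Another 9 lay above it. Detection was called for sums as low as −15.5 units (miR-151-3p) and withheld for sums as high as 15.5 (miR-3085) on the moderate array by the scanner software. Of the 37, 30 were detected on neither the light nor the severe array. After miR-24-2-5p the largest bounds among them were those of miR-3559-5p (at least 1.64-fold), miR-499-5p and miR-203a-3p (at least 1.47-fold each), miR-30e-3p (at least 1.45-fold) and miR-208a-5p (at least 1.43-fold). Among miRNAs that were detected on both arrays but lay under the floor on the naive one, the largest bounds were those of miR-133a-3p (at least 1.96-fold), miR-363-3p (at least 1.86-fold), miR-532-5p (at least 1.82-fold) and miR-191a-5p (at least 1.75-fold). These bounds hold for summed signals, which probes below 0 lower. The brightest probe of miR-363-3p, above the floor on both arrays, stood at 0.55 on the log2 scale and that of miR-191a-5p at 0.39, both less than the bound of the sum. For 22 of the 39 measured on the moderate array alone the bound was under 1 and gives no fold. The 1 miRNA detected on the naive array alone, miR-300-5p, read 9.11 and 0.511 units, under the floor of both arrays.

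Agreement between probes set how far each value can be read. For 93 miRNAs 2 probes reached the floor on both arrays. Their log2 differences had the same sign for 88, a median gap of 0.05 and a Pearson r of 0.971 across miRNAs. Among the 8 higher miRNAs both probes did so only for miR-1-3p, miR-143-3p and miR-199a-3p. The second probe of miR-214-3p read 14.4 units on the naive array and that of miR-10a-5p 13.5, close under the floor of 15.6. The second probe of miR-497-5p read 7.47 units, that of miR-212-3p 1.34 and that of miR-10b-5p −2.50. For these 3 a second probe with 0 of 10 spots well above background on the naive array enters the sum there and enlarges the difference. At the same scale the brighter probe alone stood at 1.03 for miR-10b-5p, 1.07 for miR-10a-5p, 0.99 for miR-497-5p and 0.95 for miR-212-3p, so that the last 2 came just short of 2-fold. With every miRNA read from its brightest probe the scale changed as well, to 437 units on the naive array and 674 on the moderate array, which lowers every difference. Under both changes together miR-10b-5p stood at 0.93, miR-212-3p at 0.84, miR-10a-5p at 0.96 and miR-497-5p at 0.88, and 4 of 8 remained at least 2-fold higher.

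**Figure D4:**
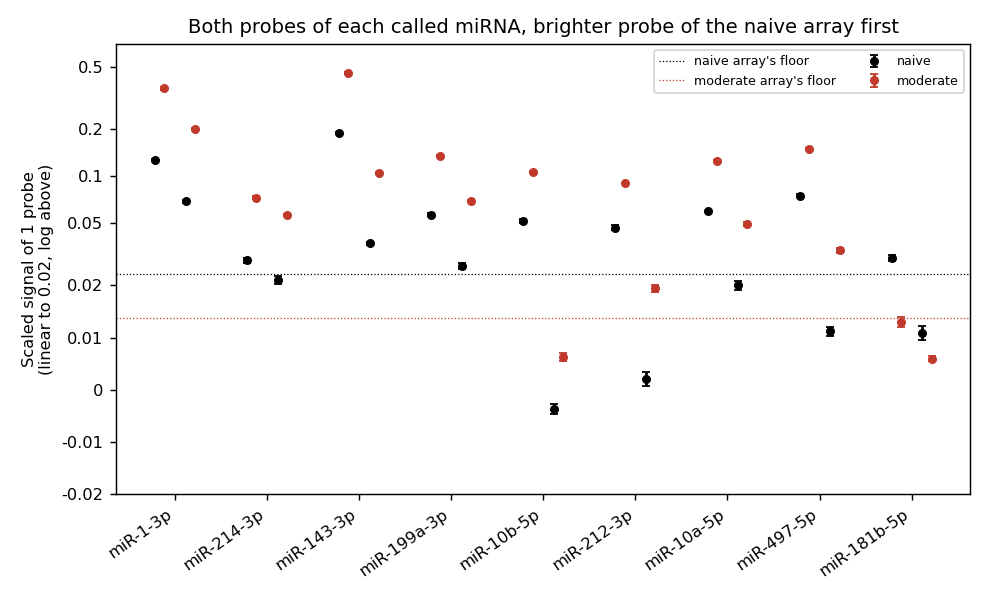
Scaled signal of the 2 probes of each called miRNA on the naive array (black) and the moderate array (red), with standard errors over replicate spots; the axis is linear up to 0.02 and logarithmic above, and dotted lines mark the floors. In the 8 higher miRNAs each probe read higher on the moderate array, but on the naive array only miR-1-3p, miR-143-3p and miR-199a-3p had both probes above the floor.

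The background of the 2 arrays differed slightly in the same range. The median probe of miRNAs never detected read −7.03 units on the naive array and −5.78 on the moderate array, 1.25 units apart. With each array's own baseline taken off, miR-1-3p (1.43), miR-143-3p (1.24) and miR-199a-3p (1.06) remained at least 2-fold higher, miR-214-3p came just short of it, and the other 4 lay between 0.82 and 0.91. With limma's normexp background correction and an added offset of 50 units, which compresses dim miRNAs, 0 miRNAs reached 2-fold in either direction.

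The split between higher and lower also moved with the scaling. It was 8 to 1 with the 75th percentile, 6 to 4 with the median over the same miRNAs, 5 to 10 with quantile normalization, 36 to 0 without scaling and 57 to 0 with the labelling spike-ins. The median difference of all miRNAs was 0.22, 0.08, 0.00, 0.74 and 0.91 in the same order, so that those counts follow the level at which the arrays were aligned. Over these scalings and the 75th percentile over miRNAs detected on both arrays, the medians of the let-7, lymphocyte, liver and gut, red-cell, platelet, and miR-99 and miR-125 lists took both signs. That of the smooth muscle and fibroblast list was 1.17 or more under each of these scalings. Over all 16 usable ways of processing it went down to 0.33. Over the scalings alone, those of the miR-23/24/27 clusters stayed between 0.44 and 1.26, and those of the miR-15/16 family between 0.19 and 1.37. miR-1-3p and miR-143-3p reached 2-fold in 15 of the 16 usable ways of processing, miR-199a-3p in 14, miR-214-3p in 12, miR-10b-5p, miR-212-3p and miR-10a-5p in 10 each and miR-497-5p in 9. miR-181b-5p was measured on both arrays in 12 of them and at least 2-fold lower in 7.

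**Figure D5:**
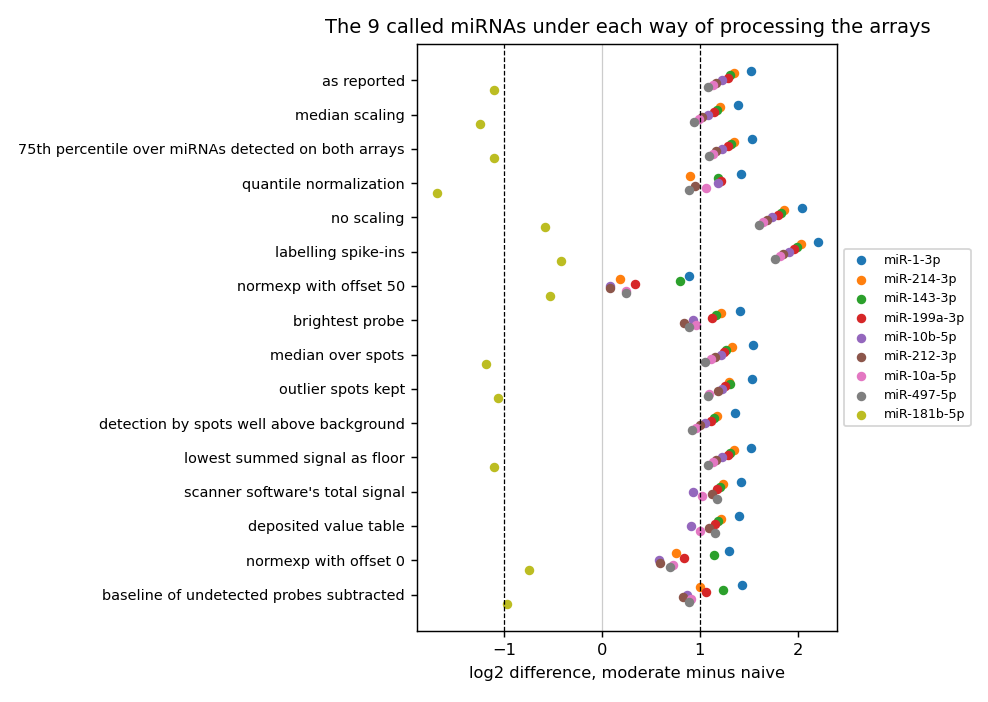
Log2 difference, moderate minus naive, of the 9 called miRNAs under each way of processing the arrays in which they were measured on both; dashed lines mark 2-fold. miR-1-3p and miR-143-3p keep to the right of 1 except with normexp and an offset of 50 (0.89 and 0.80), where all 9 lie inside 2-fold.

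Some bright miRNAs read almost alike on both arrays after scaling. Among those brighter than the naive median the smallest differences were those of miR-192-5p, miR-92a-3p (4235 and 5967 units, −0.02 ± 0.03), miR-327 (−0.03 ± 0.02), let-7i-5p (0.10 ± 0.02) and miR-342-3p (0.12 ± 0.03). The 10 brightest miRNAs of the 2 arrays shared 9 names. miR-24-3p of the naive array gave way to miR-27a-3p, and miR-1224 went from place 3 to place 6 (9508 and 9745 units, −0.48 ± 0.02).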

How the data were processed

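Serum exosome RNA of 4 groups of rats was read on 4 arrays of 1 slide with 1 scan time, and only the naive and moderate arrays are compared here. Per the file headers, the deposited intensity of each spot came from Agilent Feature Extraction 10.7.3.1 with local background subtracted and no scaling between arrays (the submitters' processing notes name version 9.1). Detection calls and other flags, per spot or per miRNA, are deposited with them. The labels' labelling protocol describes amplified cRNA from 0.5 ug RNA, a procedure for messenger RNA, on an array for miRNAs, which was not resolved. Each array had 14380 miRNA spots for 1730 probes, 386 of them marked as outliers on each of the 2 arrays and left out, and 0 were saturated. The median variation between spots of 1 probe was 4.97% on the naive array and 4.80% on the moderate array.

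Spots were averaged per probe, summed per miRNA, scaled to the 75th percentile of the 111 miRNAs that all 4 arrays detected, then floored, then set on the log2 scale (python 3.11.15, numpy 2.4.6, pandas 2.3.3). Of a miRNA measured on 1 array a bound is given against the higher of the other array's floor and its own signal there; the floor comes from single probes while values are sums over several, and a bound is therefore approximate. limma 3.58.1 (R 4.3.3) gave the normexp alternative. The steps were tested on simulated data, in which only miRNAs brighter on the naive array than most of the called ones were given a change. The simulation therefore does not cover differences of miRNAs near the floor. No test could be run with 1 array per group, and the number of arrays limits the precision.

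miRNAs are named by rule: all past 2-fold, the largest bounds, the 10 brightest of each array, the 5 nearest to 2-fold in each direction, the 5 smallest differences among the brighter ones, and members of 23 lists with their arms, neighbours and seed sharers. Of 191 listed miRNAs 187 matched an array name. The members, lists and thresholds were chosen with earlier results of these data known, so they are not independent support. The deposited value table holds 102 miRNAs, selected on grounds not given in the sources used here, with array medians of 189 (naive) and 304 (moderate); its values equal the software's total intensity within 0.0424%, unscaled. Sequences are RefSeq's (GRCr8); the files' grid is annotated on rn4, and no coordinates are given.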

Additional observations from a re-analysis of the deposited data

Results flagged for a closer look

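miR-1-3p, miR-143-3p and miR-199a-3p stood past 2-fold on opposite sides of the naive array on the 2 disease arrays of day 49. The log2 differences from naive were 1.53 on the moderate array and at most −2.35 on the severe array for miR-1-3p, 1.31 and −1.38 for miR-143-3p, and 1.28 and at most −1.11 for miR-199a-3p. The severe values of miR-1-3p and miR-199a-3p are bounds, since both read under the floor there. Of 109 miRNAs measured on both the severe and naive arrays, 24 were at least 2-fold higher and 21 lower. The moderate array had 8 higher and 1 lower of 126. Each pair shares the 1 naive array, there is 1 array per group, and the difference between the disease arrays was not tested.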

How the results depend on the processing

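No paired analysis was possible because each group has 1 array. Counts are given as at least 2-fold higher and lower, 8 and 1 as reported. Scaling on the median gave 6 and 4, quantile normalization 5 and 10, no scaling 36 and 0, and the labelling spike-ins 57 and 0; these follow the shift between the arrays. The brightest probe, which also changes the scale, gave 4 higher, the median over spots 2 lower, detection by spots well above background 5 and 3, the lowest summed signal as floor 12 and 2, the scanner software's total signal 7 and 2 and the authors' deposited values 7 and 3. Normexp with an offset of 50 gave 0 and 0, an offset of 0 (added after seeing the data) 2 and 1, and subtracting the baseline of undetected probes (also added) 3 and 1. The 75th percentile over all miRNAs gave 0 and 126; its scale, 0.766 and 8.26 units, lies under the floor, so it is void and counts in no range above. There the direction turned for miR-497-5p (−1.83), miR-10a-5p (−1.78), miR-212-3p (−1.75), miR-10b-5p (−1.69), miR-199a-3p (−1.63), miR-143-3p (−1.60), miR-214-3p (−1.56), miR-1-3p (−1.38) and the median of the smooth muscle and fibroblast list (−1.60). In the other alternatives run, none of the 8 higher miRNAs changed direction. Detection by spots gave 32 miRNAs on 1 of the 2 arrays against 38. Each of the 9 called miRNAs fell inside 2-fold with the offset of 50, which is added to each spot and compresses dim miRNAs. That outcome alone cannot show how far background limits each of them. The bound of miR-24-2-5p ran from 0.03 (total signal) to 3.81 (lowest summed signal as floor) on the log2 scale.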
